A study of Mus musculus with 16 samples.

Results

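The data concern 10 secreted matrix genes in mouse adipose progenitors, stromal cells of fat tissue from which adipocytes form. Of these, 9 encode small leucine-rich proteoglycans, namely decorin (Dcn), biglycan (Bgn), asporin (Aspn), lumican (Lum), fibromodulin (Fmod), prolargin (Prelp), osteomodulin (Omd), osteoglycin (Ogn) and podocan (Podn), and the last, Prg4, encodes lubricin. They were chosen by gene symbol with earlier results of these data known, so counts of calls among them are a description. All 10 were found among the 38720 lines of the count table and among the 16842 genes that passed the filter on low counts. RNA sequencing had been done on 16 libraries in 4 groups of 4: progenitors from visceral fat (VAT) of knockout (KO) mice, VAT of wild-type (WT) mice, subcutaneous fat (SAT) of KO mice and SAT of WT mice. KO mice carried the Nr4a1tm1Jmi allele and are given the genotype B6;129S2-Nr4a1tm1Jmi/J, WT mice are given as wild type, both are listed under the strain C57BL/6J, and all were 4 weeks old. The product of Nr4a1 is a nuclear receptor of the NR4A family, known to be induced quickly by many stimuli. Effects of the allele and of a B6;129S2 background cannot be told apart. The sources used here do not give sex, litter or the markers used to isolate the cells, and the replicates are only said to be biological, so p-values measure the spread between these libraries.

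Small leucine-rich proteoglycans are short proteins folded into a curved solenoid of leucine-rich repeats, most of them carrying chondroitin, dermatan or keratan sulphate chains. They bind collagen fibrils and set fibril width and spacing, and several also hold growth factors such as TGF-beta in the matrix or act on cell-surface receptors. Fibroblast-like stromal cells, adipose progenitors among them, are a main source. Lubricin is a large mucin-like glycoprotein best known as the boundary lubricant of joint surfaces, and it belongs to another protein family.

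Total counts ranged from 35761196 to 43984232 in KO VAT libraries, from 42383156 to 46293781 in WT VAT libraries, from 44181663 to 55551845 in KO SAT libraries and from 34655519 to 49437944 in WT SAT libraries. Levels are given as CPM, that is, counts relative to the TMM-scaled library size, and differences as log2 fold change ± SE, with the Benjamini-Hochberg adjusted p of the edgeR quasi-likelihood test over all 16842 genes. A gene is called higher or lower at an adjusted p under 0.05. Nr4a1 itself was lower in KO than in WT libraries, by -2.31 ± 0.08 in VAT and -2.43 ± 0.08 in SAT. The progenitor markers Pdgfra and Cd34 were abundant in all 4 groups, with group means of 519 to 809 CPM for Pdgfra and 734 to 1649 CPM for Cd34. WT SAT replicate 3 and KO VAT replicate 4 correlated least with the rest of their groups, at mean correlations of 0.976 and 0.981 across genes, and results were recomputed without both.

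Several of the genes are neighbours (build mm10, GENCODE positions). Dcn (chromosome 10, 97479609 to 97518143) and Lum (97565128 to 97572703) lie 46984 bases apart on the plus strand. On chromosome 1, Prelp (133910304 to 133921414, minus strand) and Fmod (134037254 to 134048277, plus strand) lie 115839 bases apart, and Prg4 (150449412 to 150466165, minus strand) is farther along. Aspn (49544443 to 49567565), Omd (49582462 to 49592822) and Ogn (49608046 to 49624501) follow each other on the plus strand of chromosome 13, with gaps of 14896 and 15223 bases. Bgn is on the X chromosome (73483602 to 73495933) and Podn on chromosome 4 (108014791 to 108096445, minus strand). The library kit does not mark strand, so reads from overlapping exons on opposite strands cannot be told apart. Such overlaps cover 4.77% of the exon bases of Prg4, shared with Tpr, 9.68% of those of Prelp, shared with the antisense gene Gm15851, and 0.297% of those of Aspn, shared with Cenpp. Neither Tpr nor Gm15851 was called in any of the 5 comparisons. Tpr had group means of 95.2 to 106 CPM, well above those of Prg4, at 1.84 to 10.6 CPM. The part of Tpr reads in the Prg4 counts was not tested. Cenpp was called higher in KO VAT than in WT VAT (2.44 against 1.24 CPM) and in KO VAT than in KO SAT, at levels far below those of Aspn.

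RefSeq promoter sequences (GRCm38.p6, the assembly called mm10) were held for 7 of the 10 genes. The 250 bases before the start are shown for the 3 chromosome 13 neighbours, which were all lower in KO VAT than in KO SAT, and for Podn, which was lower in KO libraries of both depots. Capitals mark TATAAA on the gene's strand, or AGGTCA on either strand (TGACCT where it lies on the other strand). NR4A proteins are known to bind the longer motif AAAGGTCA, called NBRE, which contains AGGTCA. The Podn sequence is that before the downstream of its 2 listed starts.
Aspn, chr13:49544193-49544442, plus strand: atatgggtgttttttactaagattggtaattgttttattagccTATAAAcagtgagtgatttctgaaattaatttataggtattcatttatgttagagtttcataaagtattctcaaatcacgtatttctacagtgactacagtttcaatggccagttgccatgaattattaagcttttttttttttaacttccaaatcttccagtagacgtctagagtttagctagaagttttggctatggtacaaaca
Omd, chr13:49582212-49582461, plus strand: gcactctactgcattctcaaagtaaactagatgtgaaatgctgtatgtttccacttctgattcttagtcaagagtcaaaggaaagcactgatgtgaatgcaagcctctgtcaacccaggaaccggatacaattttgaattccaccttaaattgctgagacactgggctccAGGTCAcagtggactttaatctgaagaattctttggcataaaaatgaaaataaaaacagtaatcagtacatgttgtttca
Ogn, chr13:49607765-49608014, plus strand: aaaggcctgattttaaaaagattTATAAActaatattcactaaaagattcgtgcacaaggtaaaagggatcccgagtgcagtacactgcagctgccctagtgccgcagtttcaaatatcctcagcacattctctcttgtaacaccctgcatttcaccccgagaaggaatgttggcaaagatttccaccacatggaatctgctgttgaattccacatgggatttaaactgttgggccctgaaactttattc
Podn, chr4:108030987-108031236, minus strand: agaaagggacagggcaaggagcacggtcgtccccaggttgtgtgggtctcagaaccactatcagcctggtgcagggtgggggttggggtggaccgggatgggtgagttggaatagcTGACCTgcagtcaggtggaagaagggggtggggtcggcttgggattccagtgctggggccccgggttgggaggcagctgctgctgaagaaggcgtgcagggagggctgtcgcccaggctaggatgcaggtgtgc
TATAAA began 207 bases before the start of Aspn and 227 bases before that of Ogn, and 7.59% of 32841 promoters of this length held it. AGGTCA began 80 bases before the start of Omd and, on the other strand, 134 bases before that of Podn, and 14.0% of promoters held it on either strand. No other window of the 7 genes held AGGTCA, including the one before the upstream start of Podn, and no other held TATAAA. The windows shown are therefore those that held a marked motif. NBRE, found in 1.34% of promoters, and the AP-1 motif TGANTCA, found in 6.75%, were in none of the 8 windows of these 7 genes. These are matches of letters in a window and say nothing of binding.

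Decorin dominated the set. Per kilobase of merged exons, Dcn stood at 1337 ± 57.3 CPM per kb in KO VAT, 1676 ± 49.9 in WT VAT, 1344 ± 60.9 in KO SAT and 1604 ± 303 in WT SAT (SD, n = 4). Lum came next in every group, at 499.7, 442, 693 and 540.0 CPM per kb in the same groups, followed by Ogn at 336, 418, 562 and 458. The ranges of Lum and Ogn overlapped in both WT groups and were apart in both KO groups. Bgn, Aspn and Prelp held the middle, at 115 to 312 CPM per kb. Among neighbours in the order, ranges also overlapped for Ogn and Bgn, Fmod and Prelp, and Prelp and Aspn in KO VAT, for Aspn and Fmod in WT VAT, and for Bgn and Aspn in WT SAT, while all neighbours were apart in KO SAT. Podn stood at 36.4 to 54.6 CPM per kb and Omd at 7.65 to 25.1. Prg4 was lowest in all 4 groups, at 0.431 in KO VAT, 0.911 in WT VAT, 1.32 in KO SAT and 2.48 in WT SAT. Fmod had no fixed place: it stood at 129 CPM per kb in KO VAT and 109 in WT VAT, beside Prelp and Aspn, but at 8.16 in KO SAT and 11.4 in WT SAT, where it was second lowest. The place of Bgn depends on the length used, since its merged exons come to 6099 bases and its longest transcript to 2666; by the longest transcript it came before Lum in both VAT groups. Together the 10 genes took 1.49% ± 0.07 of all counts in KO VAT, 1.66% ± 0.04 in WT VAT, 1.20% ± 0.03 in KO SAT and 1.27% ± 0.10 in WT SAT, and Dcn supplied 59.6%, 64.8%, 58.6% and 65.2% of that.

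**Figure D1:**
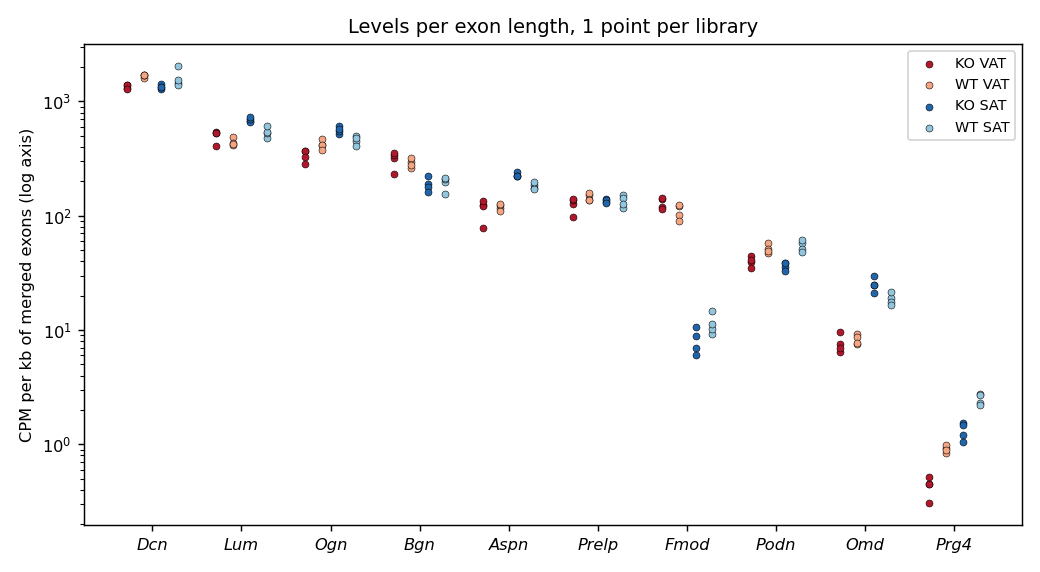
Level of each gene in each library, in CPM per kb of merged exons on a log axis, with 1 point per library and the groups in the order KO VAT, WT VAT, KO SAT and WT SAT. Dcn is highest and Prg4 lowest throughout, while Fmod lies near 100 CPM per kb in VAT and near 10 in SAT.

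Prg4 and Podn were lower in KO than in WT libraries in both depots. In VAT, 2 of the 10 genes were called, both lower, where 4.10% of all tested genes were called (2.84% higher, 1.26% lower). In SAT, 3 of 10 were called, 2 lower and 1 higher, where 5.89% of all tested genes were called (3.46% higher, 2.43% lower). KO and WT ranges did not overlap for 4 of 10 genes in VAT, all lower, against 13.7% of all tested genes (7.02% higher, 6.72% lower). In SAT they did not overlap for 5 of 10, 3 higher and 2 lower, against 14.7% (7.95% higher, 6.75% lower). The median log2 fold change over the 10 genes was -0.16 in VAT and -0.02 in SAT, against -0.004 and -0.01 over all tested genes. In bulk libraries, fewer cells of a type and less RNA per cell cannot be told apart.

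Prg4 had 1.93, 1.91, 2.22 and 1.31 CPM in the KO VAT libraries, against 3.97, 4.23, 3.56 and 3.83 CPM in the WT VAT libraries. In SAT it had 5.18, 6.60, 6.32 and 4.51 CPM in KO libraries, against 9.79, 11.7, 11.5 and 9.41 CPM in WT libraries. Every KO library was below every WT library of its depot. The log2 fold change was -1.08 ± 0.16 in VAT (0.474-fold, adjusted p = 0.000558) and -0.91 ± 0.15 in SAT (0.533-fold, adjusted p = 0.00144). These levels rest on 56 to 102 counts per library in KO VAT, 180 to 204 in WT VAT, 216 to 275 in KO SAT and 344 to 460 in WT SAT. Prg4 is thus a minor transcript, and the part of Tpr reads in its counts was not tested. The call held without each of the 8 libraries of its depot in turn, with log2 fold changes of -1.18 to -0.95 in VAT and -0.99 to -0.81 in SAT.

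Podn, whose product binds collagen and is known to restrain smooth muscle cell growth, had 191, 167, 174 and 149 CPM in KO VAT libraries, against 246, 217, 200.1 and 211 CPM in WT VAT libraries. In SAT it had 164, 153, 165 and 140 CPM in KO libraries, against 248, 219, 205 and 261 CPM in WT libraries. Here too the KO and WT ranges were apart in each depot. The log2 fold change was -0.36 ± 0.10 in VAT (adjusted p = 0.0415) and -0.59 ± 0.10 in SAT (adjusted p = 0.00132). The SAT call held without each library in turn, whereas the VAT call was lost without any 1 of 6 of the 8 VAT libraries (KO VAT replicates 2, 3 and 4 and WT VAT replicates 1, 2 and 4), with adjusted p of up to 0.148.

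Lum, a keratan sulphate proteoglycan that spaces collagen fibrils and is best known from the cornea, was the gene called higher. It had 1643, 1622, 1712 and 1806 CPM in KO SAT libraries, against 1162, 1296, 1324 and 1507 CPM in WT SAT libraries. All KO SAT libraries were above all WT SAT libraries, and the log2 fold change was 0.36 ± 0.10 (adjusted p = 0.0417). The call was lost without any 1 library except WT SAT replicate 4, with adjusted p of up to 0.129. In VAT, Lum had 1327, 1287, 1286 and 992 CPM in KO libraries and 1025, 1206, 1058 and 1043 CPM in WT libraries, which overlap (0.18 ± 0.10, adjusted p = 0.389).

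Dcn, which binds collagen and TGF-beta, had 8056, 7619, 8111 and 7425 CPM in KO VAT libraries, against 9348, 9899, 9958 and 9929 CPM in WT VAT libraries. Those ranges are apart, yet the log2 fold change of -0.33 ± 0.10 was not called (adjusted p = 0.0928). In SAT, Dcn had 7498, 8342, 7809 and 7746 CPM in KO libraries and 8449, 8082, 11957 and 8972 CPM in WT libraries (-0.25 ± 0.10, adjusted p = 0.156). WT SAT replicate 3 holds the highest of these values, and without it the log2 fold change in SAT was -0.12, the value nearest to 0 among those that leave out 1 library. Without any 1 VAT library, Dcn in VAT was still not called (adjusted p of 0.120 to 0.205). Without WT SAT replicate 3 and KO VAT replicate 4 together, Dcn in VAT had an adjusted p of 0.00936. WT SAT replicate 3 is not part of the VAT contrast, but it enters the spread estimated over all groups. The part of either library in this lower adjusted p was not tested.

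The 3 chromosome 13 neighbours were on the higher side in KO SAT without being called. Ogn, also called mimecan and first described in bone, had 1338, 1410, 1558 and 1463 CPM in KO SAT libraries, against 1289, 1148, 1038 and 1225 CPM in WT SAT libraries (0.30 ± 0.10, adjusted p = 0.0867). Omd, a keratan sulphate proteoglycan of bone matrix, had 47.3, 67.1, 55.9 and 55.4 CPM against 43.1, 39.8, 48.3 and 37.3 CPM in the same groups (0.42 ± 0.13, adjusted p = 0.0568). Aspn, an aspartate-rich relative of decorin that binds collagen and TGF-beta, had 527, 571, 525 and 528 CPM against 435, 409, 402 and 463 CPM (0.33 ± 0.12, adjusted p = 0.116). The KO and WT ranges were apart for Ogn and Aspn and overlapped for Omd. Without WT SAT replicate 3 and KO VAT replicate 4, Omd (adjusted p = 0.0282) and Aspn (adjusted p = 0.0112) were called, which made 5 of 10 in SAT, while the calls over all genes in SAT came to 1264, against 992 with all libraries.

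In VAT the same 3 genes were on the lower side. Ogn had 945, 944, 838 and 724 CPM in KO VAT libraries, against 1067, 1194, 1060 and 969 CPM in WT VAT libraries, ranges that were apart (-0.31 ± 0.10, adjusted p = 0.0856). Omd had 21.6, 14.5, 17.1 and 15.6 CPM against 20.7, 19.7, 16.9 and 17.2 CPM (-0.11 ± 0.13, adjusted p = 0.725). Aspn had 290, 288, 319 and 186 CPM against 276, 293, 257 and 298 CPM (-0.05 ± 0.12, adjusted p = 0.879), and its sign turned without KO VAT replicate 4, the lowest of these libraries.

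Whether the KO effect itself differed between depots (VAT minus SAT) was tested directly. None of the 10 genes was called by edgeR, where 0.267% of all tested genes were (0.131% higher, 0.137% lower). Ogn came nearest, at -0.61 ± 0.14 (adjusted p = 0.0702), followed by Fmod at 0.72 ± 0.24 (adjusted p = 0.172), Omd at -0.54 ± 0.18 (adjusted p = 0.175) and Aspn at -0.39 ± 0.17 (adjusted p = 0.283). DESeq2 called 1 gene, Ogn, with an adjusted p of 0.00265, and limma-voom called 0. For Prg4 the difference was -0.17 ± 0.22 and for Podn 0.22 ± 0.13, neither called.

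Bgn, a collagen-binding relative of decorin that as a soluble molecule is a ligand of toll-like receptors, Prelp, which links basement membranes to collagen, and Fmod were not called in either depot. Bgn had 1413 to 2163 CPM in KO VAT against 1596 to 1939 CPM in WT VAT, and 992 to 1352 CPM in KO SAT against 936 to 1315 CPM in WT SAT. Prelp had 356 to 503 CPM in KO VAT against 493 to 567 CPM in WT VAT, and 471 to 511 CPM in KO SAT against 424 to 548 CPM in WT SAT. All 4 pairs of ranges overlap. Fmod differed by 0.24 ± 0.17 in VAT (adjusted p = 0.502) and by -0.48 ± 0.17 in SAT (adjusted p = 0.109).

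**Figure D2:**
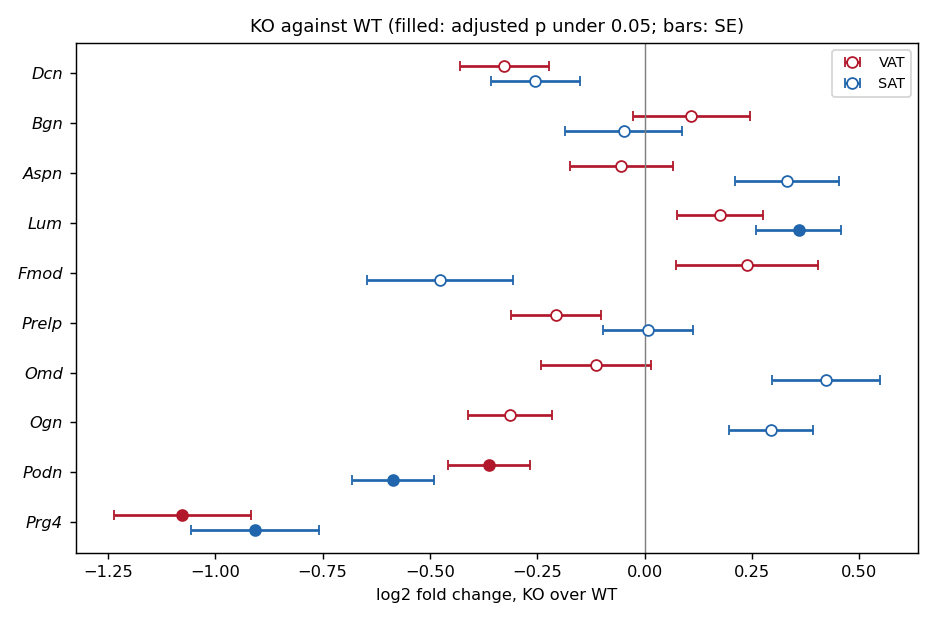
Log2 fold change of KO over WT for each gene in VAT (upper point) and SAT (lower point), with bars of 1 SE and filled points where the adjusted p was under 0.05. Prg4 and Podn are filled and left of 0 in both depots, and Lum is filled and right of 0 in SAT. Aspn, Bgn, Fmod, Omd, Ogn and Prelp have opposite signs in the 2 depots, with no filled point among them.

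Between depots, Fmod and Bgn were higher in VAT, and Omd, Prg4, Aspn and Lum lower, in both genotypes. Among KO libraries, 7 of 10 genes were called between VAT and SAT, 2 higher and 5 lower in VAT, where 43.3% of all tested genes were called (23.3% higher, 20.0% lower). Among WT libraries, 6 of 10 were called, 2 higher and 4 lower, where 36.7% were called (19.1% higher, 17.6% lower). Ranges of VAT and SAT did not overlap for 7 of 10 genes in KO libraries, 2 higher and 5 lower, against 45.6% of all tested genes (23.8% higher, 21.8% lower). In WT libraries they did not overlap for 5 of 10, 2 higher and 3 lower, against 34.1% (18.0% higher, 16.1% lower). Depot calls were frequent among all genes, so these counts alone show nothing particular to the 10 genes. Scaling by library totals in place of TMM moved the median of all genes to 0.36 in KO and 0.29 in WT libraries, against 0.02 and -0.004 with TMM. It also moved the share of called genes that were higher in VAT to 86.6% and 85.6%, against 53.8% and 52.0%.

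Fmod, which binds collagen and guides fibril assembly in tendon and other connective tissue, differed most. It had 395, 378, 461 and 474 CPM in KO VAT libraries, against 29.3, 23.1, 35.3 and 20.2 CPM in KO SAT libraries. In WT libraries it had 398, 336, 413 and 300.4 CPM in VAT, against 30.5, 48.8, 33.5 and 37.4 CPM in SAT. The lowest VAT library was several-fold above the highest SAT library in both genotypes. The log2 fold change was 3.98 ± 0.19 in KO (15.8-fold, adjusted p = 6.78e-11) and 3.27 ± 0.18 in WT libraries (9.64-fold, adjusted p = 4.04e-10). Of all tested genes, 2.80% in KO and 3.63% in WT libraries had a larger absolute log2 fold change. Bgn was the other gene higher in VAT, with 1950, 2073, 2163 and 1413 CPM in KO VAT against 1149, 1086, 1352 and 992 CPM in KO SAT (0.73 ± 0.14, adjusted p = 0.000317). In WT libraries it had 1817, 1939, 1596 and 1694 CPM in VAT against 1194, 1290, 936 and 1315 CPM in SAT (0.57 ± 0.14, adjusted p = 0.00302). No VAT library of Bgn fell within the SAT range of its genotype.

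Prg4 and Omd were the genes lowest in VAT relative to SAT. From the library values above, every VAT library was below every SAT library of its genotype for both. Prg4 differed by -1.61 ± 0.16 in KO (0.327-fold, adjusted p = 3.41e-07) and by -1.44 ± 0.15 in WT libraries (0.368-fold, adjusted p = 8.74e-07). Omd differed by -1.71 ± 0.13 in KO (0.305-fold, adjusted p = 1.40e-08) and by -1.18 ± 0.13 in WT libraries (0.442-fold, adjusted p = 1.32e-06). Aspn was lower in VAT by -0.99 ± 0.12 in KO (adjusted p = 4.11e-06) and by -0.60 ± 0.12 in WT libraries (adjusted p = 0.000744), again with ranges apart. Ogn was lower in VAT in KO libraries (-0.74 ± 0.10, adjusted p = 9.36e-06, ranges apart), while in WT libraries its difference of -0.13 ± 0.10 was not called (adjusted p = 0.316). The calls of Fmod, Bgn, Prg4, Omd and Aspn kept their direction under scaling by library totals, as did that of Ogn in KO libraries.

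Lum was lower in VAT by -0.47 ± 0.10 in KO (adjusted p = 0.000928) and by -0.29 ± 0.10 in WT libraries (adjusted p = 0.0310). Under scaling by library totals these became -0.13 (not called) and 0.01 (not called), beside the shift of all genes given above. The WT call was also lost without any 1 of 4 libraries (WT SAT replicate 4 and WT VAT replicates 1, 3 and 4), with adjusted p of up to 0.106. Dcn, Prelp and Podn were not called in either genotype, with log2 fold changes between -0.10 and 0.13. Under scaling by library totals, Dcn and Prelp were called higher in VAT in both genotypes and Podn in KO libraries. Without WT SAT replicate 3, Dcn was called higher in VAT in WT libraries, at 0.20 (adjusted p = 0.0261).

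**Figure D3:**
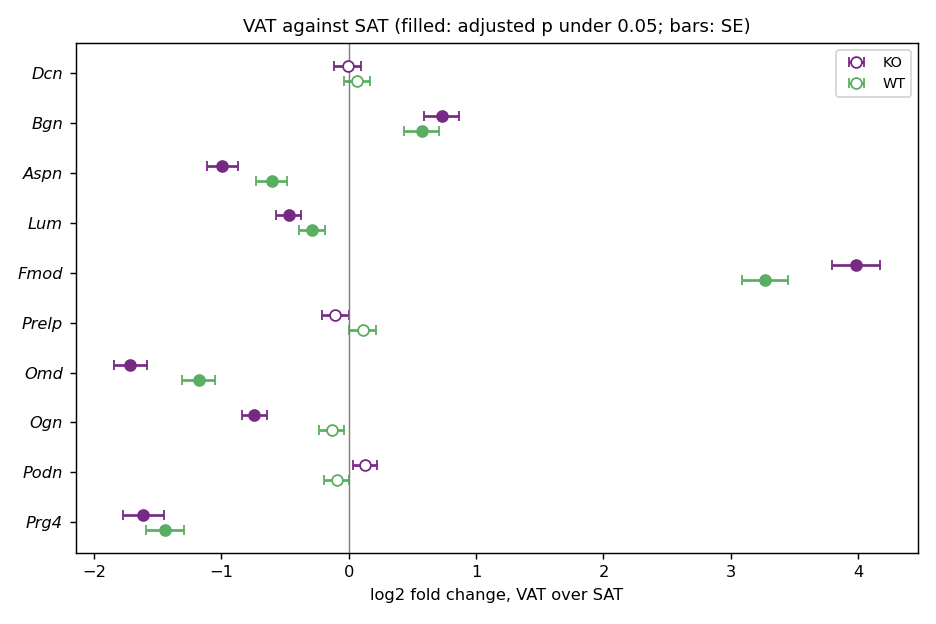
Log2 fold change of VAT over SAT for each gene in KO (upper point) and WT (lower point) libraries, with bars of 1 SE and filled points where the adjusted p was under 0.05. Fmod stands alone between 3 and 4, Bgn is the other filled gene right of 0, and Omd, Prg4 and Aspn are filled and left of 0 in both genotypes.

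**Figure D4:**
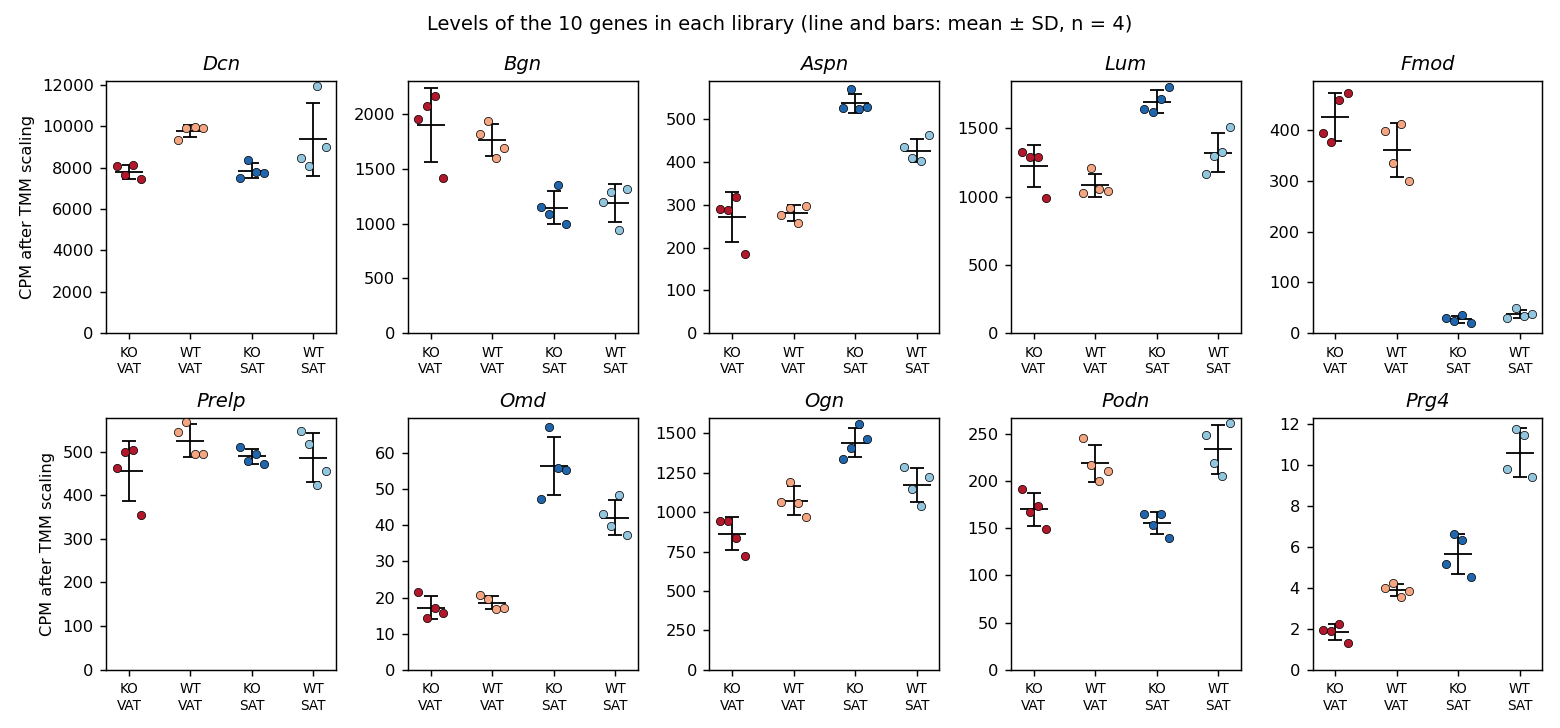
CPM after TMM scaling of each gene in each library, with 1 panel per gene, 1 point per library, and the mean ± SD of the 4 libraries of a group, in the order KO VAT, WT VAT, KO SAT and WT SAT. Prg4 and Podn are lower in KO than in WT libraries of each depot, Fmod is high in VAT, and Omd and Aspn are high in SAT.

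Markers of cell types also moved with the depot. All 14 tested mesothelium markers were called higher in VAT in both genotypes, with summed levels of 1080 to 2043 CPM in KO VAT, 1097 to 2071 in WT VAT, 42.7 to 63.1 in KO SAT and 60.4 to 80.5 in WT SAT. Upk3b, a uroplakin that defines mesothelium, averaged 419 CPM in KO VAT and 495 CPM in WT VAT, against 0.140 CPM in KO SAT and 0.141 CPM in WT SAT. Pericyte and smooth muscle markers were higher in VAT for 9 of 11 genes in KO and 8 of 11 in WT libraries, with summed levels of 5162 to 6597, 5558 to 6015, 2216 to 3076 and 2802 to 4669 CPM in KO VAT, WT VAT, KO SAT and WT SAT. Markers of tendon, cartilage and synovial lining, a list without the 10 genes themselves, were higher in VAT for 8 of 12 genes in either genotype (439 to 628, 369 to 658, 98.2 to 211 and 50.5 to 84.2 CPM in the same order). Of these 12, 1 was lower in VAT in KO libraries (Col2a1) and 2 were lower in WT libraries (Col2a1 and Comp). Markers of Dpp4-type interstitial progenitors were lower in VAT for 11 of 11 genes in either genotype, and those of Schwann cells for 8 of 10, with 1 higher. Of 11 adipose progenitor markers, 5 were lower and 2 higher in VAT in KO, and 7 lower and 3 higher in WT libraries. Their sums were 2811 to 3417 CPM in KO VAT, 3398 to 3682 in WT VAT, 5154 to 5655 in KO SAT and 4888 to 5624 in WT SAT. Of 8 adipocyte markers, 7 were higher and 1 lower in VAT in KO, and 0 higher and 1 lower in WT libraries. The part of any of these lists in the depot differences of the 10 genes was not tested.

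Markers also differed between genotypes. In KO VAT, 4 of 8 adipocyte markers were higher than in WT VAT, with summed levels of 188 to 308 against 126 to 151 CPM, and 0 of 14 mesothelium and 0 of 11 pericyte markers were called. In KO SAT, 2 of 11 Dpp4-type markers were higher (summed 10867 to 14309 against 9664 to 11860 CPM), and 2 of 11 pericyte and smooth muscle markers were lower (2216 to 3076 against 2802 to 4669 CPM). Of 8 adipocyte markers, 1 was lower in KO SAT (summed 151 to 189 against 194 to 228 CPM). Of the committed preadipocyte markers, 2 of 12 were lower in KO SAT and 1 of 12 in KO VAT. Markers of tendon, cartilage and synovial lining summed to 98.2 to 211 CPM in KO SAT against 50.5 to 84.2 CPM in WT SAT, ranges that were apart, with Cilp called higher and Col2a1 lower in KO SAT. The median log2 fold change of that list was -0.01, against -0.01 over all tested genes. Its first markers were low in both groups: in KO SAT and WT SAT, Scx averaged 0.266 and 0.245 CPM, Tnmd 2.28 and 2.01, and Mkx 0.288 and 0.260. Endothelial markers summed to 173 to 195 CPM in KO VAT against 208 to 230 CPM in WT VAT, also apart, with 0 of 10 called. The median log2 fold change of that list was 0.09, against -0.004 over all tested genes, so the sum and the median went opposite ways. In KO VAT and WT VAT, Kdr averaged 20.8 and 36.5 CPM, Cdh5 8.17 and 4.33, and Pecam1 1.71 and 1.84. The sums of the 6 epithelial markers were apart in SAT as well, at 4.01 to 6.24 CPM in KO SAT against 6.37 to 7.22 CPM in WT SAT. Markers of macrophages summed to 25.2 to 69.8 CPM and those of lymphocytes to 3.20 to 11.5 CPM over all 16 libraries. Their part in the lower Prg4 and Podn was not tested.

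Of 9 relatives outside the 10 genes, Ecm2 and Tsku were the most abundant by CPM. Ecm2, a relative that lies 11653 bases before Aspn, averaged 212 CPM in KO VAT and 273 CPM in WT VAT, and 201 CPM in KO SAT and 204 CPM in WT SAT. It was lower in KO VAT than in WT VAT (-0.36 ± 0.10, adjusted p = 0.0412), a call lost without 7 of the 8 libraries taken 1 at a time, all but KO VAT replicate 1. It was also lost under scaling by library totals (adjusted p = 0.0600), with no filter on low counts (adjusted p = 0.0530) and in the fit of only the groups compared (adjusted p = 0.0761). Tsku (tsukushi, a secreted modulator of BMP and Wnt signalling) was lower in VAT, by -0.88 ± 0.09 in KO and -0.92 ± 0.09 in WT libraries. Epyc (epiphycan, a proteoglycan of cartilage) was higher in VAT, at 14.9 against 1.01 CPM in KO and 13.6 against 0.624 CPM in WT libraries. Chadl stood at 3.02 to 6.50 CPM, and Kera, Optc, Chad, Nyx and Podnl1 had group means of 0.0471 to 2.30 CPM. Between KO and WT, 0 of these 9 relatives were called in SAT and 1, Ecm2, in VAT.

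Genes that build the sugar chains or work with these proteins on collagen were followed as lists. Between KO VAT and WT VAT, 0 of 22 genes of chondroitin and dermatan sulphate synthesis, 0 of 10 of keratan sulphate synthesis, 0 of 15 fibrillar and associated collagens and 0 of 18 ligands and receptors of the family were called. At the same contrast 1 of 21 genes of fibril assembly was lower, the matrix glycoprotein gene Tnxb (-0.45 ± 0.10, adjusted p = 0.0205, lost without any 1 of 3 libraries, KO VAT replicate 4 and WT VAT replicates 1 and 2). Among proteases, 1 of 16 was higher, Adamts9 (0.55 ± 0.13, adjusted p = 0.0263, lost without any 1 of 5 libraries, KO VAT replicates 1, 2 and 3 and WT VAT replicates 2 and 4).

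In SAT, 5 of 18 ligands and receptors were higher in KO than in WT libraries, and 0 were lower. They were Met, the receptor of hepatocyte growth factor (0.72 ± 0.13, adjusted p = 0.00305), Tgfb2 (0.44 ± 0.11, adjusted p = 0.0231), Tgfbr1 (0.35 ± 0.08, adjusted p = 0.0231), Kdr (0.95 ± 0.24, adjusted p = 0.0248) and Tgfbr2 (0.44 ± 0.12, adjusted p = 0.0418). The call of Met held without each library in turn, while each of the other 4 was lost without at least 4 of the 8 libraries taken 1 at a time, so that the count ranged from 1 to 4. Kdr is also on the list of endothelial markers, and it was the gene of this list whose KO effect differed between depots (-1.77, adjusted p = 0.0351, lost without any 1 of 10 of the 16 libraries). The list's median was 0.09, against -0.01 over all genes. In KO SAT, 1 of 22 genes of chondroitin and dermatan sulphate synthesis (Dsel, higher), 1 of 10 of keratan sulphate synthesis (Chst1, lower), 2 of 15 collagens (Col14a1 higher, Col2a1 lower) and 2 of 21 of fibril assembly (Plod2 and Tll1, higher) were called. Each of these 6 calls was lost without at least 1 library, Tll1 without KO SAT replicate 4 and the others without 4 to 7 of the 8.

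The receptor and hyaluronan list of lubricin had 1 of 10 genes called in each depot, Hmmr, which encodes a hyaluronan-binding protein of the mitotic spindle. It had 8.0 ± 1.0 CPM in KO VAT against 2.75 ± 0.41 CPM in WT VAT, and 7.02 ± 1.14 CPM in KO SAT against 2.02 ± 0.14 CPM in WT SAT (SD, n = 4). It was higher in KO by 1.54 ± 0.14 in VAT (adjusted p = 8.44e-06) and by 1.80 ± 0.15 in SAT (adjusted p = 3.18e-06), and both calls held without each library in turn. Among 24 other matrix and cell-surface proteoglycans, 1 was called in VAT, Gpc4 (0.28 ± 0.06, adjusted p = 0.0204, lost without any 1 of 3 libraries, KO VAT replicate 2 and WT VAT replicates 3 and 4), and 4 in SAT. The testican Spock2 was lower in KO SAT (-0.78 ± 0.14, adjusted p = 0.00294) and its relative Spock3 higher (1.12 ± 0.23, adjusted p = 0.00920), and both calls held without each library in turn. The syndecans Sdc1 (higher) and Sdc4 (lower) were called in KO SAT as well, and each was lost without 5 or 6 of the 8 libraries taken 1 at a time.

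Between depots the collagens on which these proteins act were lower in VAT. Of 15 fibrillar and associated collagens, 12 were lower and 1 higher in VAT in either genotype, with a median of -0.92 in KO and -1.03 in WT libraries, and under scaling by library totals 9 and 10 were lower and 1 higher. Col1a1 differed by -1.86 ± 0.11 in KO and -2.03 ± 0.11 in WT libraries, and Col1a2, Col3a1, Col5a1 and Col5a2 were lower as well. Fmod and Bgn, higher in VAT, moved against the main collagen genes, and Omd and Aspn moved with them, as did Lum except under scaling by library totals, where it was not called. Of 21 fibril assembly genes, 15 were lower and 1 higher in VAT in KO, and 16 lower and 2 higher in WT libraries (11 lower and 4 higher in KO, and 10 lower and 4 higher in WT, under scaling by library totals), among them the procollagen processing enhancer Pcolce2 and the collagen chaperone Serpinh1. Of 22 genes of chondroitin and dermatan sulphate synthesis, 13 were lower and 3 higher in KO, and 11 were lower and 3 higher in WT libraries, against 8 lower and 6 higher in KO and 6 of each in WT libraries under scaling by library totals. Dse, the epimerase that makes dermatan sulphate, was lower in VAT by -0.87 ± 0.08 in KO and -0.53 ± 0.08 in WT libraries.

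The genes whose profile over the 16 libraries was nearest were found by the root mean square difference of log2 CPM, each gene centred on its own mean, among 10074 genes. For Prg4 they were Wnt11 (0.351), Pcsk6 (0.368) and Ifi205 (0.378), and for Podn the clock gene Per1 (0.114), Foxo3 (0.132) and Zfp592 (0.132). For Fmod they were Ezr (0.310), Kcnd3 (0.314) and Sphk1 (0.323). Aspn was nearest to the lysyl oxidase relative Loxl2 (0.0864), Grb10 (0.113) and Cd164 (0.116), and Omd to Trim30d (0.168), Prrx1 (0.174) and P4ha2 (0.182). Ogn was nearest to Jak1 (0.0894), Slc30a4 (0.0967) and Ccdc93 (0.0984), and Lum to Gmcl1 (0.108), Zmat3 (0.110) and Cdk14 (0.111). Dcn was nearest to Rit1 (0.0892), Plin3 (0.0929) and Sugt1 (0.0934), Bgn to Arhgef6 (0.132), Fchsd2 (0.132) and Slc19a2 (0.139), and Prelp to Synrg (0.0765), Slc44a1 (0.0792) and Itga9 (0.0812). Prg4 and Fmod had the most distant nearest genes of the 10. Profiles were centred but not scaled, so this distance tends to be larger for genes that vary more between libraries.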

How the data were processed

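The authors deposited a table of whole-number read counts per gene symbol and library, and every value here starts from these counts. A deposited table of rescaled counts was not used. Per the labels' protocols, libraries were made with a NEBNext Ultra RNA kit and read as single reads on an Illumina NextSeq instrument. Per the submitters' processing notes, the tools were STAR, FastQC, featureCounts and DESeq and the genome build was mm10. Not given in the sources used here: versions, annotation, strand setting, and how multiply mapped reads were treated.

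The analysis used edgeR 4.0.16 in R 4.3.3: filterByExpr left 16842 of 38720 lines, libraries were scaled by TMM, and all 16 libraries entered 1 quasi-likelihood model with a coefficient for each group (12 residual degrees of freedom, biological coefficient of variation 0.156). Contrasts compared KO with WT in each depot, VAT with SAT in each genotype, and the KO effects of the depots, with Benjamini-Hochberg adjustment over all tested genes. Standard errors were derived from the F statistic (log2 fold change over its root). The fit was tested on simulated data. Levels between genes were divided by merged exon length (GENCODE vM21). Motifs were searched in RefSeq promoters. Profiles were compared on log2 CPM with a prior count of 2, among protein-coding genes averaging 5 CPM or more. Figures were drawn with matplotlib 3.10.9.

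The members and gene lists were chosen with earlier results of these data known. The text names all members, 9 other family members, up to 3 called genes with the smallest p per list and comparison, the first 3 markers of a list, genes with overlapping exons and the 3 nearest profiles. Other genes named to complete a small count, and Cilp, Dse, Col5a1, Col5a2, Pcolce2 and Serpinh1, were chosen after their values were seen. Alternatives were other scalings, no filter, DESeq2 1.42.0, limma-voom (limma 3.58.1), only the groups compared, a replicate block, and leaving out each library. Leaving out WT SAT replicate 3 and KO VAT replicate 4 together was chosen after seeing the data.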

Additional observations from a re-analysis of the deposited data

Results flagged for a closer look

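In 3 of 40 sets of 4 libraries (10 genes in 4 groups), 1 library stood far from the others of its group, where chance gives about 1 in 20. Dcn was lowest in WT VAT replicate 1, at 9347.8 CPM, while the other 3 WT VAT libraries lay between 9899 and 9958 CPM. Aspn was highest in KO SAT replicate 2, at 570.606 CPM, while the other 3 KO SAT libraries lay between 525 and 528 CPM. Lum was lowest in KO VAT replicate 4, at 992.24 CPM, while the other 3 KO VAT libraries lay between 1286 and 1327 CPM. KO VAT replicate 4 was also the lowest KO VAT library for Dcn, Bgn, Aspn, Prelp, Ogn, Podn and Prg4.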

How the results depend on the processing

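Over all alternatives, 804 of 870 values of the 10 genes kept their direction and their side of the threshold, 27 lost the call, 20 gained it and 19 changed sign. DESeq2 called more: 1232 genes and 4 of the 10 in VAT between KO and WT, 1701 genes and 5 of the 10 in SAT, and 528 genes and 1 of the 10 for the difference between depots. Fitting only the groups compared called 509 genes in SAT. Between KO VAT and WT VAT, scaling by library totals and leaving out the filter each called 1 of the 10 genes, Podn being lost. Library totals gave 29 called genes for the difference between depots, and moved the share of called genes that were higher to 80.8% against 69.3% for KO VAT over WT VAT and to 65.5% against 48.9% for the difference. Without WT SAT replicate 3 and KO VAT replicate 4, 5 of the 10 were called in SAT, among 1264 genes in all. Leaving out 1 library at a time called 469 to 1015 genes in SAT, 412 to 625 in VAT and 7 to 149 for the difference between depots, and 1 to 2 of the 10 in VAT between KO and WT.

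The following values changed sign, that of Lum being a called one. Under library totals, VAT over SAT became 0.0117 for Lum, 0.166 for Ogn and 0.203 for Podn in WT libraries, and 0.34 for Dcn and 0.24 for Prelp in KO libraries. Without both libraries, KO over WT became -0.0533 for Prelp in SAT and 0.0889 for Aspn in VAT, and VAT over SAT 0.0143 for Dcn in KO libraries. Leaving out 1 library gave -0.146 to 0.0146 for Bgn and -0.0535 to 0.0697 for Prelp (KO over WT, SAT), -0.143 to 0.0888 for Aspn (KO over WT, VAT), -0.0313 to 0.0206 in KO and -0.0251 to 0.202 in WT libraries for Dcn (VAT over SAT), and -0.212 to 0.00704 for Dcn in the difference between depots. The cause was not tested. Taking Col1a1, Col1a2, Col3a1, Sparc and Gsn out of the totals, the share of counts of the 10 genes was 1.66% in KO VAT, 1.83% in WT VAT, 1.53% in KO SAT and 1.60% in WT SAT.

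The replicate numbers were not taken to pair the libraries: no label says what a number shares, and no comparison had all 4 correlations between same-numbered libraries above 0.1 (range -0.16 to 0.18). Between WT VAT and WT SAT, replicates 1, 2 and 3 had 0.144, 0.119 and 0.113, each the best match of its number, and replicate 4 had -0.041. With the replicate block, 14 genes were called for the difference between depots, against 45 without it, and Lum was no longer called for KO over WT in SAT (adjusted p = 0.0712) or for VAT over SAT in WT libraries (adjusted p = 0.0508). No other call among the 10 genes changed under it.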

Other observations

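Among the 10 genes themselves, the profiles of Lum and Ogn over the 16 libraries were nearest to each other (root mean square difference of centred log2 CPM 0.209), followed by Dcn and Podn (0.227) and Dcn and Prelp (0.231). The chromosome 10 neighbours Dcn and Lum differed by 0.377, the chromosome 13 neighbours Aspn and Omd by 0.382 and Omd and Ogn by 0.544, and the chromosome 1 neighbours Prelp and Fmod by 1.86. All 3 pairs with the largest difference involved Fmod, with Prg4 (2.64), Omd (2.59) and Aspn (2.27). The level of Lum per kb relative to that of Dcn was 0.319 to 0.403 in KO VAT, 0.251 to 0.291 in WT VAT, 0.464 to 0.556 in KO SAT and 0.264 to 0.400 in WT SAT libraries. This ratio does not depend on how libraries are scaled, and in each depot the KO libraries lay above the WT libraries. It was chosen after its values were seen and is a description without a test.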
